A study of Mus musculus with 2 samples.

Results

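The alpha and beta tubulin isotypes examined here are 10 genes among the 36227 rows of the deposited table, found by matching Ensembl gene IDs to mouse symbols: the alpha genes Tuba1a, Tuba1b, Tuba1c and Tuba4a and the beta genes Tubb2a, Tubb2b, Tubb3, Tubb4b (Tubb2c in older annotation), Tubb5 and Tubb6. All 10 had counts. RNA came from naturally ovulated oocytes at the MII stage, the mature egg held in the second meiotic metaphase, of ICR mice on a standard diet. The aged pool was made from females of 12 months and the young pool from females of 3 months. Each was 1 pool of 18 oocytes from 6 females, 3 from each, so the spread between animals cannot be seen, no test was run, and all intervals are 95% intervals that cover counting error only. In such a pool, fewer oocytes holding a transcript and less of it in each oocyte cannot be told apart. The intervals treat every read as independent, PCR copies included, so they can be too narrow even for counting error.

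Microtubules are built from heterodimers of alpha and beta tubulin, and the meiotic spindle of the mouse oocyte, which forms without centrioles, is built from these dimers. The isotypes are encoded by separate genes and differ most in their C-terminal tails, which project from the microtubule surface and carry glutamate chains and, on most alpha isotypes, a terminal tyrosine that can be removed and put back. A cell with excess soluble tubulin degrades tubulin mRNA during translation, a process that begins when the factor TTC5 binds the first residues of the nascent chain. The grown oocyte is transcriptionally silent, so the mRNAs of MII oocytes were made before maturation and are stored, translated or degraded.

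The start of the coding sequence is shown first, since it encodes the residues that this autoregulation reads. The 4 alpha members used 2 different sequences for their first 4 codons and the 6 beta members 5, yet each family encoded a single set of residues, Tubb6 included. Sequences are from the longest protein-coding transcript of each gene in GENCODE mouse release 21, first 12 coding bases, 5′ to 3′.
Tuba1a, Tuba1b and Tuba1c: atgcgtgagtgc
Tuba4a: atgcgcgagtgc
Tubb2a: atgcgcgagatc
Tubb2b: atgcgagagatc
Tubb3 and Tubb4b: atgagggagatc
Tubb5: atgagggaaatc

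The end of the coding sequence sets most of the isotypes shown apart, but Tubb2a and Tubb2b encode the same residues there. The last 60 coding bases, the stop codon included, are given for 7 members with glutamate codons in capitals, since these encode the residues to which glutamate chains can be added.
Tuba1c: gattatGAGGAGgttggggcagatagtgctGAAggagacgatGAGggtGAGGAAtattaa
Tuba4a: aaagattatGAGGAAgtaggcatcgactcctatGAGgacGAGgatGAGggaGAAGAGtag
Tubb2a: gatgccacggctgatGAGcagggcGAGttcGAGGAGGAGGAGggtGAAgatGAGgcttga
Tubb2b: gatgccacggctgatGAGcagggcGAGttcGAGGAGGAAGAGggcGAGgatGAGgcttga
Tubb3: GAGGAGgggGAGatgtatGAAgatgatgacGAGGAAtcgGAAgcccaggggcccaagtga
Tubb4b: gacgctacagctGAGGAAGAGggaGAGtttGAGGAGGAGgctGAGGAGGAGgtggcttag
Tubb5: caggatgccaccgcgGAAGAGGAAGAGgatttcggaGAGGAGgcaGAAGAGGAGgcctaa

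Among the 19 codons before the stop, glutamate codons numbered 6 in Tuba1c and 7 in Tuba4a. The beta members had 8 in Tubb2a, Tubb2b and Tubb6, 7 in Tubb3, 10 in Tubb4b and 9 in Tubb5. The last codon encodes tyrosine in Tuba1c and glutamate in Tuba4a, whose coding sequence therefore encodes no terminal tyrosine. Among the beta members it encodes alanine in Tubb2a, Tubb2b, Tubb4b and Tubb5, lysine in Tubb3 and glutamate in Tubb6.

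How many reads can be assigned to each isotype depends on how much of its transcript is its own. Coding sequences of Tuba1a and Tuba1b were 98.3% identical, those of Tuba1b and Tuba1c 97.9% and those of Tubb2a and Tubb2b 96.5%. Every other pair within the alpha or the beta family lay between 80.2% and 85.7%, apart from Tuba1a and Tuba1c at 97.1%. Of the 50-base stretches of each transcript, 83.1% of Tuba1b, 75.5% of Tuba1a, 61.0% of Tuba1c, 55.5% of Tubb4b, 49.6% of Tubb2a, 48.8% of Tuba4a and 39.3% of Tubb2b also occurred in another annotated gene. Those of Tubb4b lay mainly in its pseudogenes, with 43.6% in Tubb4b-ps1. For Tuba4a, 47.7% lay in Stk16, a kinase gene on the opposite strand that covers its 3′ end, and all stretches of its last 500 bases were shared. The shorter model Tuba4a-201 also shared all of its last 500 bases. Tubb3 and Tubb6 shared no 50-base stretch with any transcript of another annotated gene and Tubb5 shared 0.115%. The sources used here do not give how reads with several matches were counted or whether strand was used. Tubb4b overlaps Fam166a, on the opposite strand, by 121 bases, and Tubb3 overlaps Gm20388, on its own strand, by 10592 bases. Gm49450 overlaps Tuba1a by 3715 and Tuba1b by 2429 bases on their own strand, and Gm41396 overlaps Tuba1b by 241 bases on the opposite strand. The transcripts of these Gm genes were among those compared, and their counts were not analysed here.

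**Figure D1:**
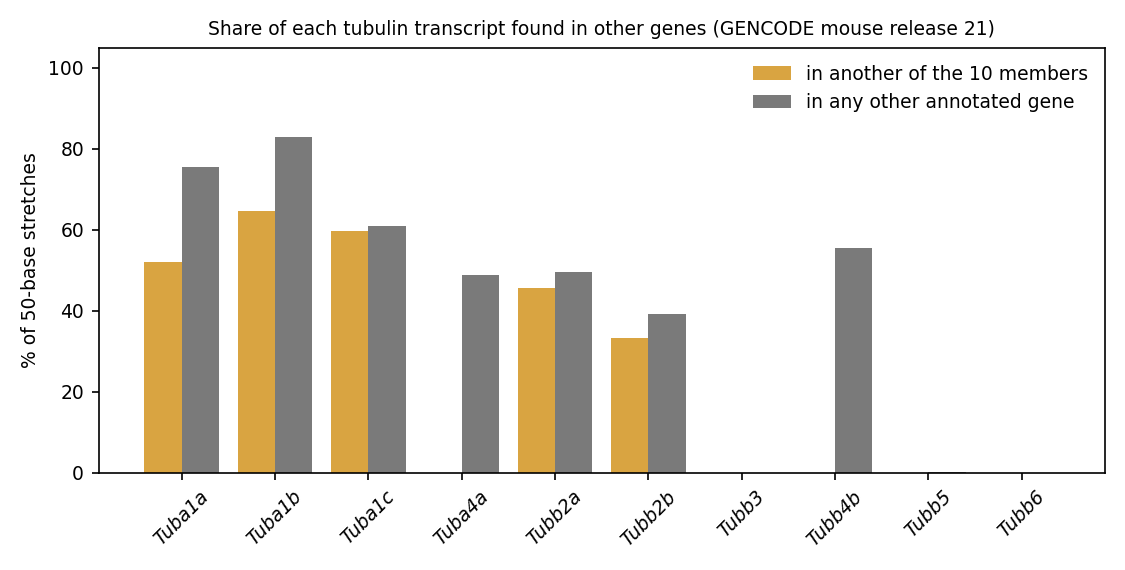
Share of the 50-base stretches of each tubulin transcript (vertical axis, percent) that also occur in another of the 10 members (left bars) or in any other annotated gene (right bars). Tuba1b reaches 83.1% by the second measure, while Tubb3, Tubb5 and Tubb6 are at or near 0.

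The aged pool held 18597656 counts and the young pool 19475110. The 100 most abundant genes held 39.6% of all counts in the aged pool, against 50.4% in the young pool, and the choice of scaling moves every ratio by the same step. Scaled to library totals, the 10211 genes averaging 20 or more counts had a median log2 of aged over young of 0.43, and values called relative to the median gene are lower by that amount. The oocyte markers Gdf9, Bmp15, Zp1, Zp2, Zp3, Mos, H1foo and Oosp1 were present in both libraries, with 8 of 8 detected in each and a summed level of 95601 CPM (counts scaled to a common library size, the CPM unit) in the aged and 176720 CPM in the young pool. Of these markers, 3 lay 2-fold or more lower in the aged pool, against 10.6% of all genes, and their median log2 ratio was −0.76. Of 14 cumulus and granulosa cell markers, 7 were detected in each library, with sums of 63.6 CPM in the aged and 26.6 CPM in the young pool, of which Cyp19a1 made up 56.8 and 22.4 CPM. Amh, Amhr2, Foxl2, Inhba and Star had no count in either. Of 6 markers of stroma, endothelium and blood, 3 were detected in the aged and 5 in the young pool, with sums of 39.5 and 23.3 CPM. Pecam1 made up 38.9 CPM of the sum in the aged and 19.6 CPM in the young pool, while Vim had 0 counts in the aged and 51 in the young pool, and Hbb-b1 was not analysed here. Other cells also express tubulin genes, and the part of such cells in the values below was not tested.

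Tubb3, the class III beta tubulin known mainly from neurons, was the most abundant member in both libraries by CPM per kilobase of transcript. The gene (ENSMUSG00000062380, chromosome 8) had 6905 counts in the aged pool and 15692 in the young pool, or 199 and 431 CPM per kb. Tubb2a (ENSMUSG00000058672, chromosome 13), another beta isotype known from neurons, came next with 3180 counts in the aged and 1706 in the young pool (106 and 54.4 CPM per kb). The 2 genes thus led in the same order at both ages. Tubb4b (ENSMUSG00000036752, chromosome 2), a broadly expressed beta isotype, had 32.9 CPM per kb in the aged and 21.8 in the young pool from 979 and 679 counts, and Tubb6 (ENSMUSG00000001473, chromosome 18) had 30.2 and 29.1 CPM per kb from 986 and 998 counts. Tubb5 (ENSMUSG00000001525, chromosome 17), the main beta isotype of many dividing cells, had 11.2 CPM per kb in the aged and 19.3 in the young pool from 551 and 995 counts. Tubb2b (ENSMUSG00000045136, chromosome 13), the near copy of Tubb2a, had 28 counts in the aged and 35 in the young pool (0.690 and 0.824 CPM per kb).

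Tuba1c (ENSMUSG00000043091, chromosome 15) was the most abundant alpha member, with 766 counts in the aged and 934 in the young pool, or 20.8 and 24.2 CPM per kb. Tuba1b (ENSMUSG00000023004, chromosome 15), the alpha isotype that is most abundant in many cell types, had 51 counts in the aged and 84 in the young pool (1.57 and 2.47 CPM per kb). Tuba4a (ENSMUSG00000026202, chromosome 1) had 43 counts in the aged and 187 in the young pool (0.814 and 3.38 CPM per kb), and Tuba1a (ENSMUSG00000072235, chromosome 15), an alpha isotype of developing neurons, 2 and 3 counts. In the order of levels per kb, counting intervals of neighbours overlapped for Tubb4b and Tubb6 and for Tuba4a and Tubb2b in the aged pool. In the young pool they overlapped for Tuba1c and Tubb4b, for Tubb4b and Tubb5 and for Tuba4a and Tuba1b. These levels divide all counts of a gene by the whole transcript length, shared or not. If reads with several matches were left out of the counts, which is unknown, only unshared length could give counts. Dividing the same counts by that length alone gave 217 CPM per kb in the aged and 111 in the young pool for Tubb2a, and 204 and 443 for Tubb3. Under that assumption the order of these leading genes would turn round in the aged pool.

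**Figure D2:**
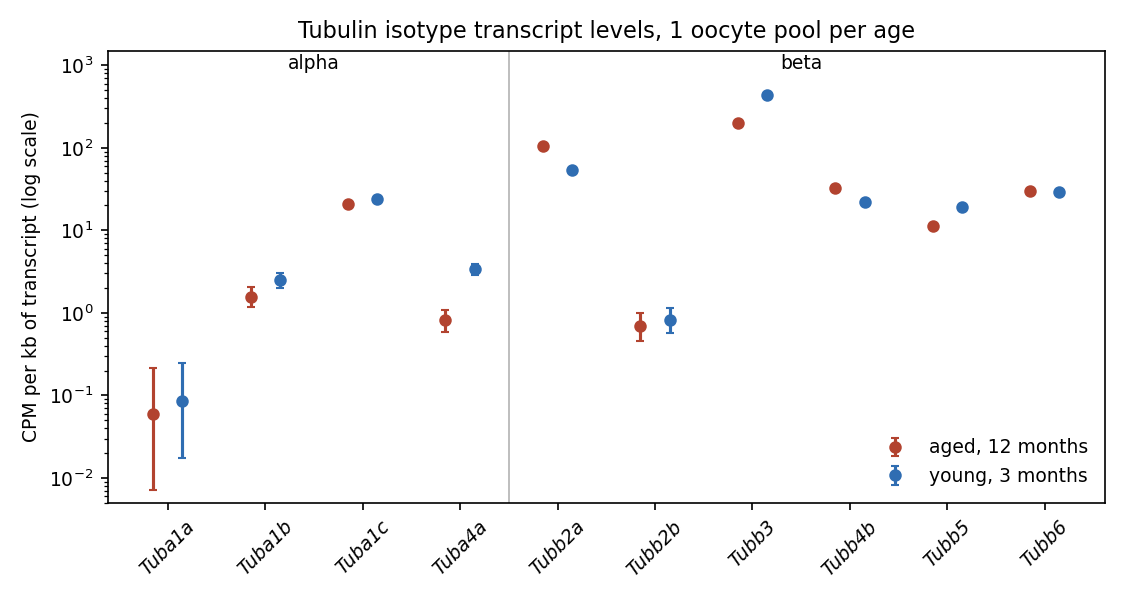
Level of each tubulin isotype as CPM per kb of transcript (log axis) in the aged (left point of each pair) and young (right point) pool, with 95% exact counting intervals. Tubb3 is highest in both, at 199 and 431, and Tuba1a lowest, with 2 and 3 counts.

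Of the 9 members averaging 20 or more counts, Tubb3 and Tuba4a, that is 2, lay at least 2-fold lower in the aged pool, against 10.6% of all 10211 genes, and 0 lay at least 2-fold higher, against 27.9%. For both, the whole counting interval lay beyond 2-fold, which held for 6.35% of all genes in that direction and for 0 members and 18% of genes in the other. The calls were 2 lower and 0 higher also with a limit of 100 counts (7 members; 7.39% and 25.7% of all genes), with 5 counts added to each (9.76% and 26.5%) and with no limit (10 members; 18.4% and 29.9%). Tuba1a, with 2 and 3 counts, averaged under 20 and is given no ratio. The median log2 ratio of the 9 members was −0.26, against 0.43 for all genes. These numbers describe 9 genes of 2 pools and were not tested.

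Tubb3 was 2.17-fold lower in the aged pool (interval 2.11 to 2.23), a log2 ratio of −1.12, or −1.54 relative to the median gene. Of all genes above the limit, 9.32% had a lower ratio. Its transcript has a GC content of 57.9%, and genes of like length and GC content had a median log2 ratio of −0.18. Less the median of those 146 genes its ratio was −0.94, which no longer reaches 2-fold. Tuba4a was 4.15-fold lower (interval 2.97 to 5.93), a log2 ratio of −2.05, or −2.48 relative to the median gene, and 3.26% of genes had a lower ratio. Stk16, which overlaps its 3′ end, had 141 counts in the aged and 76 in the young pool, so the pair of overlapping genes lay in opposite directions. The part of shared reads in the value of Tuba4a was not tested.

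Among the other beta members, the point values ran in both directions. The log2 ratio of Tubb2a was 0.96 (interval 0.88 to 1.05), a 1.95-fold higher level in the aged pool, just short of 2-fold. Tubb4b had a log2 ratio of 0.59 (0.45 to 0.74) and Tubb6 one of 0.05 with an interval of −0.08 to 0.18 that includes equality. Tubb5 had −0.79 (−0.94 to −0.63), and Tubb2b, from few counts, −0.26 with an interval of −1.03 to 0.50. Tubb2a and Tubb2b share 96.5% of their coding sequence, and their summed counts, 3208 in the aged and 1741 in the young pool, gave 0.95, a value set by Tubb2a. Relative to the median gene, Tubb2a stood at 0.54, Tubb4b at 0.17, Tubb2b at −0.68 and Tubb6, whose sign changed with the scaling, at −0.38.

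The alpha members other than Tuba4a were nearer to equality. Tuba1c had a log2 ratio of −0.22 (interval −0.36 to −0.08) and Tuba1b one of −0.65 (−1.18 to −0.13). The near-identical genes Tuba1a, Tuba1b and Tuba1c summed to 819 counts in the aged and 1021 in the young pool, a log2 ratio of −0.25 (−0.39 to −0.12). Relative to the median gene, Tubb5 at −1.21 and Tuba1b at −1.08 also reached 2-fold, so that 4 of 9 members lay 2-fold or more lower and 0 higher, against 17.3% and 16% of all genes. TMM factors, another scaling, gave the same counts of 4 and 0, against 16.3% and 17.2%. With totals that leave out the 100 most abundant genes the counts were 3 and 0, against 14.6% and 19.5%, and with the correction for length and GC content 2 and 0, against 14.9% and 13.6%.

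**Figure D3:**
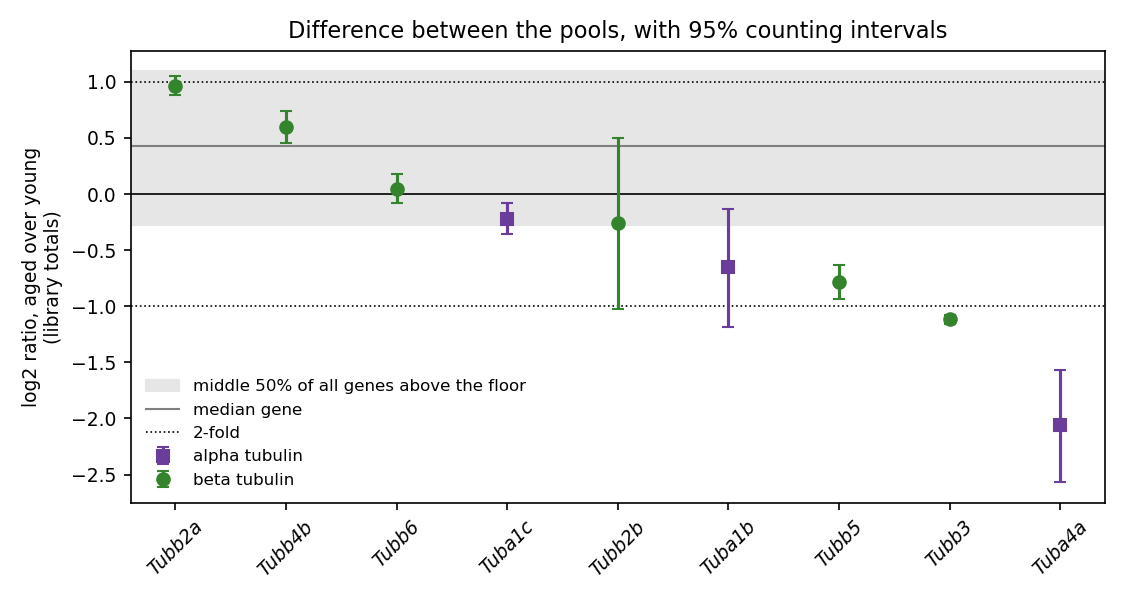
Log2 ratio of aged over young for the 9 members above the count limit, scaled to library totals, with 95% counting intervals; squares are alpha and circles beta isotypes. The grey band holds the middle 50% of all genes around their median of 0.43, and the 2 lowest members, Tubb3 at −1.12 and Tuba4a at −2.05, lie beyond the lower 2-fold line.

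The make-up of the beta tubulin counts differed between the pools, a comparison that no library scaling affects. The shares are not corrected for length and GC content. Genes of like length and GC content had median log2 ratios of −0.18 for Tubb3 and −0.09 for Tubb6. The medians were 0.20 for Tubb2a and Tubb4b, 0.28 for Tubb2b and 0.34 for Tubb5. Their part in the shares was not tested. Tubb3 supplied 54.7% of the beta counts in the aged pool (53.8% to 55.5%) and 78.1% in the young pool (77.5% to 78.6%). Tubb2a supplied 25.2% in the aged pool (24.4% to 25.9%) and 8.49% in the young pool (8.10% to 8.88%). Tubb4b made up 7.75% in the aged and 3.38% in the young pool, and Tubb6 7.81% and 4.96%, while Tubb5 made up 4.36% and 4.95%, whose intervals of 4.01% to 4.73% and 4.65% to 5.26% overlap. In Tubb3, Tubb2a, Tubb4b and Tubb6 the shares lay further apart than their counting intervals. The shares of 1 sum depend on each other. Tubb6 had 986 counts in the aged and 998 in the young pool, with a log2 ratio of 0.05. The spread between pools of 1 age is unknown.

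Among the counts of the 4 alpha members, Tuba1c supplied 88.9% in the aged pool (86.6% to 90.9%) and 77.3% in the young pool (74.9% to 79.7%). The alpha-like gene Tubal3, left out of these shares, had 816 counts in the aged and 778 in the young pool, against 766 and 934 for Tuba1c. Tuba4a supplied 4.99% in the aged pool (3.63% to 6.66%) and 15.5% in the young pool (13.5% to 17.6%). Tuba1b made up 5.92% in the aged and 6.95% in the young pool, with overlapping intervals. Tuba4a has no terminal tyrosine codon, as given above.

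**Figure D4:**
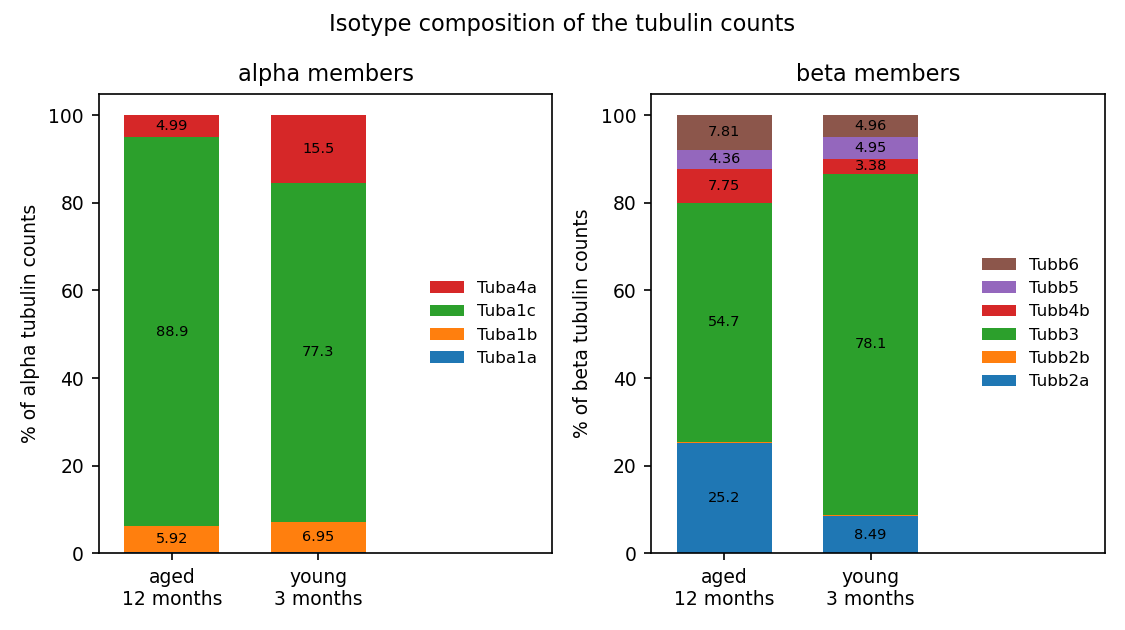
Composition of the counts of the 4 alpha members (left panel) and the 6 beta members (right panel) in percent, with the aged pool left of the young one and 1 colour per isotype. In the beta panel Tubb3 takes 54.7% of the aged and 78.1% of the young counts and Tubb2a 25.2% and 8.49%.

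Summed over members, the 6 beta genes had 12629 counts in the aged and 20105 in the young pool, 1.52-fold lower (1.49 to 1.55). The 4 alpha genes had 862 and 1208 counts, 1.34-fold lower (1.23 to 1.46). These sums leave out the 6 other alpha and beta tubulin genes, which held 961 counts in the aged and 870 in the young pool. Of those, the alpha-like Tubal3 held 816 and 778, so the alpha value covers the listed members only. Tubb3 holds most of the beta sum. Without it, the other 5 beta members summed to 5724 counts in the aged and 4413 in the young pool, a log2 ratio of 0.44 in place of −0.60, which is 0.02 relative to the median gene. There were 6.83 alpha counts per 100 beta counts in the aged pool and 6.01 in the young pool. As ratios, their counting intervals of 0.0636 to 0.0731 in the aged and 0.0566 to 0.0637 in the young pool overlap. Without Tubb3 there were 15.1 alpha counts per 100 beta counts in the aged and 27.4 in the young pool. The direction of this ratio thus turned when that gene was left out. It also turned, to 12.2 and 13.1, with all counts divided by unshared length alone. Much of the alpha transcripts is shared with other genes, and how shared reads were counted is unknown.

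Of the 6 other alpha and beta tubulin genes, Tubal3, a divergent alpha-like gene, was the most abundant, with 816 counts in the aged and 778 in the young pool (14.2 and 12.9 CPM per kb). Tuba3b had 84 and 43 counts, 2.05-fold higher in the aged pool with an interval from 1.40-fold, and Tuba3a, a close copy with which it may share reads, 54 and 46. Tuba8 had 7 counts in the aged and 1 in the young pool, Tubb4a 0 and 2, and Tubb1, the beta tubulin of platelets, no count. Only Tuba3b of the 3 above the limit reached 2-fold, against 27.9% of all genes that stood 2-fold or more higher. Relative to the median gene none did, against 16% of all genes higher and 17.3% lower. Tubg2, a gamma tubulin, had 14807 counts in the aged and 15412 in the young pool, and Tubg1 1148 and 1474. Both gamma genes were within 2-fold. The delta tubulin gene Tubd1 was 4.25-fold higher (211 and 52 counts) and the epsilon tubulin gene Tube1 had 852 and 861 counts.

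The 13 genes that fold tubulin all lay above the limit. In the aged pool 5 stood 2-fold or more higher, against 27.9% of all genes, and 1 lower, against 10.6%, and their median log2 ratio was 0.56. Relative to the median gene 4 were higher, against 16% of all genes, and 1 lower, against 17.3%, and the median was 0.13. No test of the list was run. Prefoldin hands nascent tubulin to the chaperonin CCT, and its subunit gene Pfdn2 was 9.14-fold higher in the aged pool with 3036 and 348 counts. Tbca, a cofactor that binds beta tubulin, was 3.64-fold higher with 761 and 219 counts. Tbcel, a relative of the cofactor gene Tbce, had 50 counts in the aged and 2 in the young pool, a log2 ratio of 4.71 with an interval of 2.78 to 7.80. In the other direction, the prefoldin gene Pfdn6 was 2.57-fold lower with 29 and 78 counts.

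Of 3 genes of tubulin mRNA autoregulation, 2 were above the limit, Scaper and Cnot11. Neither reached 2-fold, against 27.9% of all genes higher and 10.6% lower. Ttc5, which recognises nascent tubulin, had 4 counts in the aged and 10 in the young pool, too few for a ratio. Scaper, which links TTC5 to the deadenylase, had 48 and 41 counts, and Cnot11, the deadenylase subunit to which it binds, 2345 and 2120.

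Genes that modify tubulin lay on both sides. Of 28 genes, 20 were above the limit, of which 4 stood 2-fold or more higher, against 27.9% of all genes, and 3 lower, against 10.6%, with a median log2 ratio of 0.06. Against the median gene 2 were higher and 6 lower, where all genes had 16% and 17.3%, and the median was −0.36. Vash2, a carboxypeptidase that removes the terminal tyrosine of alpha tubulin, was 10.9-fold higher in the aged pool with 73 and 7 counts (from 5.04-fold). Svbp, its partner, was lower by 0.91 on the log2 scale with 76 and 150 counts, and Ttl, the ligase that restores the tyrosine, 2.57-fold higher with 49 and 20 counts. Vash1 had no count. These partner genes of the tyrosine cycle were chosen after their values were seen, apart from Vash2. Tpgs1, a subunit of a glutamylase complex, was 4.06-fold lower with 8 and 34 counts. Sirt2, a deacetylase with tubulin among its substrates, had 2 counts in the aged and 47 in the young pool, a log2 ratio of −4.49 with an interval of −7.58 to −2.55.

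Of the 12 genes that sever microtubules or sequester tubulin, 7 were above the limit, with 1 at least 2-fold higher, against 27.9% of all genes, and 1 lower, against 10.6%. Their median of 0.44 lay next to the 0.43 of all genes. Relative to the median gene 1 was higher and 1 lower, against 16% and 17.3% of all genes. Spast, which encodes the severing enzyme spastin, was 2.92-fold higher in the aged pool with 5985 and 2149 counts. Katnal2, a katanin-like gene, was 3.25-fold lower with 15 and 51 counts, and Katna1, the katanin catalytic subunit, had a log2 ratio of 0.92 from 1857 and 1028 counts. Stmn1, which encodes the tubulin-binding protein stathmin, had 10 counts in the aged and 19 in the young pool.

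**Figure D5:**
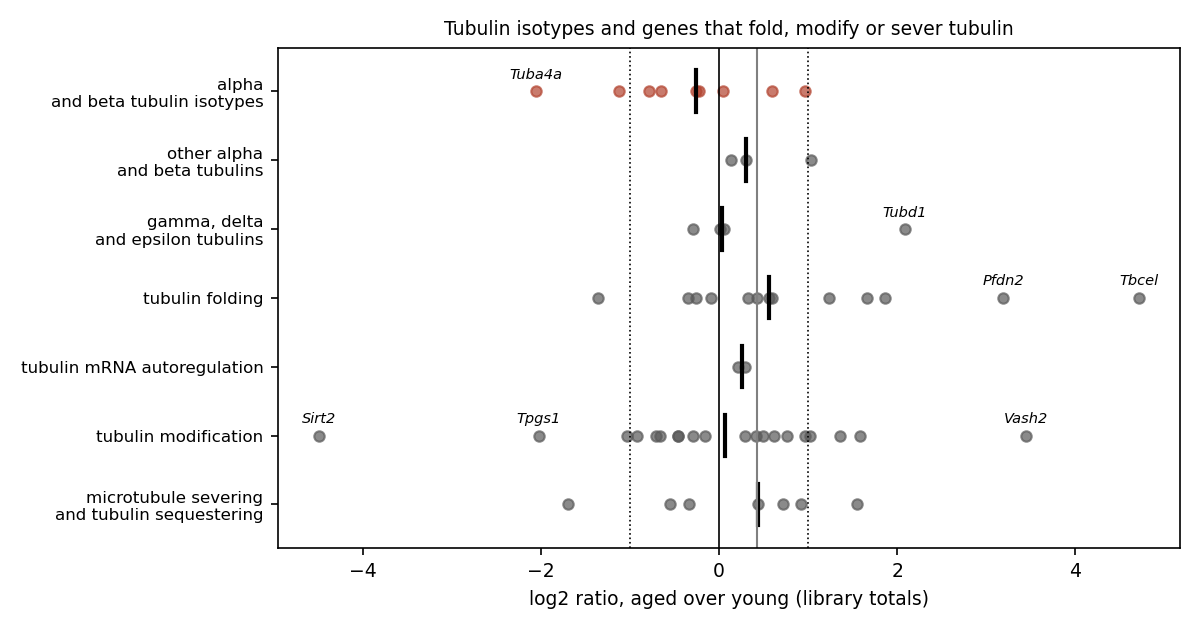
Log2 ratio of aged over young (horizontal axis, library totals) for genes above the count limit, with the tubulin isotypes in the top row and the related gene lists below; thick ticks are medians, dotted lines mark 2-fold and the grey line the median of all genes at 0.43. The isotypes have a median of −0.26, and the folding list reaches furthest to the right with Tbcel at 4.71.

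The 3′ ends of the transcripts were searched because stored oocyte mRNAs with a cytoplasmic polyadenylation element can gain a longer poly(A) tail during maturation, and these libraries were primed on poly(A). In the last 100 bases of the transcript, on the sense strand, the element TTTTAT occurred in Tubb3 and Tubb2b among the 10 members and in 15.9% of 9206 protein-coding transcripts above the limit. The element TTTTAAT occurred in no member and in 5.83% of those transcripts. The sites are shown with 30 bases each and the element in capitals; the first starts 94 bases and the second 31 bases before the annotated end.
Tubb3: ttattcgtctgtTTTTATggtttgttttgt
Tubb2b: aagttatatcatTTTTATgatgctgggaat
Tubb3 and Tubb2b, the members with this element, had log2 ratios of −1.12 and −0.26. The polyadenylation signal AATAAA started 32 bases before the annotated end of Tubb3. Neither AATAAA nor the variant ATTAAA occurred in the last 100 bases of Tubb2b, Tuba1b or Tuba4a. Of the 9206 transcripts, 81.0% held either in their last 50 bases. The annotated ends may not be those used in oocytes, and a match of letters does not show that a site is used.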

How the data were processed

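RNA was measured in 1 library of pooled MII oocytes per age. Per the labels' protocols, mRNA was reverse transcribed from an oligo(dT) primer of 24 bases, tailed, amplified by 18 and 14 PCR cycles and sequenced on a SOLiD instrument; the build was mm9, per the submitters' processing notes. No source used here gives the aligner, counting program or annotation. The values used are unnormalized counts per gene, as deposited by the authors. The authors' deposited log2 fold changes run young over aged; turned in sign, those scaled to totals matched the ratios computed here within 1e-06 for all 10 members. The score, p-value and q-value columns deposited by the authors rest on 1 library per age and were not used. The labels name no molecular identifiers, so PCR copies are counted as reads.

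Symbols came from GENCODE mouse release 21 (85.5% of rows matched), whose build differs from that of the counts, so coordinates are left out. Ratios are log2 (aged over young) of counts divided by library totals, for genes averaging 20 or more counts; 0 counts were set to 3. These 3 counts equal 0.161 CPM in the aged and 0.154 CPM in the young pool and are not a limit of the intervals. Intervals are exact (Clopper-Pearson, 95%). Identity between members was computed on aligned coding bases. Levels between genes are CPM per kb of the longest protein-coding transcript. For the length and GC content correction, the median ratio of a gene's bin was subtracted (10 bins of length by 10 of GC content). All members and other alpha and beta tubulin genes are named, with up to 3 genes of each other list with the largest absolute log2 ratios, and further ones were picked with their values known. Members, lists and the rule were chosen with earlier results of these data known. Python 3.11.15, numpy 2.4.6, scipy 1.17.1, pandas 2.3.3, Biopython 1.88 and matplotlib 3.10.9 were used, and TMM factors came from edgeR 4.0.16 in R 4.3.3. The ratio calculation was tested on simulated data. The coding ends of some members are not reported here.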

Additional observations from a re-analysis of the deposited data

How the results depend on the processing

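The number of members at least 2-fold lower in the aged pool was 2 with library totals (against 10.6% of all genes). It was 4 when centred on the median gene (17.3%) and 4 with TMM factors (16.3%). With the correction for length and GC content it was also 2 (14.9%), but these were Tuba4a and Tubb5, not Tubb3. In these settings, with no floor, a floor of 100 counts, 5 counts added or totals without the 100 most abundant genes, 0 members were at least 2-fold higher. The share of all genes that were at least 2-fold higher ran from 13.6% to 29.9% over these settings. Over the 4 alpha members the summed log2 ratio was −0.42 with library totals, −0.85 relative to the median gene, −0.79 with TMM factors and −0.71 without the 100 most abundant genes. The summed beta log2 ratio was −0.60, with −1.03, −0.98 and −0.89 in the same settings, −0.53 with the length and GC content correction and 0.44 without Tubb3. The alpha over beta ratio was 0.0683 in the aged and 0.0601 in the young pool by counts and 0.0611 and 0.0541 per kb. Without Tubb3 it was 0.151 and 0.274, with all counts divided by unshared length alone, as if shared reads were not counted, 0.122 and 0.131, also the other way round, and with the other alpha and beta tubulin genes 0.144 and 0.103. Without Tuba1c and Tubb3 it was 0.0168 in the aged and 0.0621 in the young pool, so that without Tubb3 the direction between the pools turned. Per kb, the share of Tubb3 in the beta sum was 52.3% in the aged and 77.5% in the young pool, and that of Tuba1c in the alpha sum was 80.3% in the young pool. The settings without Tubb3, with unshared stretches and with other genes were chosen after seeing the data. No paired analysis was possible because each age has 1 library, and for the same reason none could be left out. Members with under 100 counts (Tuba1a, Tuba1b, Tubb2b and, in the aged pool, Tuba4a) are limited by depth.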
